A study of Homo sapiens with 20 samples.

Results

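The ribosome biogenesis genes studied here were 37 genes whose proteins build ribosomes in the nucleolus, taken from a list of gene symbols. They were 37 of the 60271 genes in the count table, and all 37 were among the 16522 genes with enough counts to be tested. By role, 3 encode RNA polymerase I subunits, 4 box C/D and 4 box H/ACA small nucleolar ribonucleoprotein (snoRNP) proteins, 6 proteins listed as abundant in the nucleolus, 11 assembly factors of the small ribosomal subunit and 9 of the large subunit. RNA of MDA-MB-468 cells, an epithelial triple negative breast cancer line with high EGFR, was sequenced in 5 groups of 4 libraries. The control group received no epidermal growth factor (EGF), and the other groups received 50 ng/mL for 12, 24, 48 or 72 h, a treatment used to induce epithelial-mesenchymal transition. All cells were serum-starved for 24 h before the first EGF addition and, by the sample labels, harvested at the same time. The groups thus differed in when EGF was added and so in the serum-free time before it. Effects of these times cannot be told apart. The study's methods state that the line was not authenticated after delivery. The labels call the 4 libraries of a group biological replicates without saying how their cultures were separated, so p-values measure the spread between these samples.

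Ribosome production begins in the nucleolus, where RNA polymerase I transcribes the precursor of ribosomal RNA (rRNA). Box C/D snoRNPs methylate and box H/ACA snoRNPs pseudouridylate that precursor, while assembly factors fold and cut it together with ribosomal proteins. Growth factor signalling and the MYC transcription factor are known regulators of these genes, and MYC binds the E-box sequence in many promoters.

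The libraries held 15611961 to 25856953 counts each. Mitochondrially encoded genes took a mean of 10.9% of the counts in the control and 9.41%, 12.4%, 12.5% and 15.04% in the EGF groups in time order, with 7.69% to 16.9% over single libraries. Without them all 37 members were again higher at 12 h with the same median log2 fold change of 0.87. The epithelial markers EPCAM, CDH1, KRT8, KRT18, KRT19, KRT5 and EGFR were present in every library, with EGFR at 3617 to 10886 CPM (counts relative to the library total). PGR had no count in any of the 20 libraries, whereas ESR1, the estrogen receptor, was detected in all at 1.71 to 6.90 CPM. Of the fibroblast and leukocyte markers, LUM had no count in 19 libraries, DCN in 13, CD3E in 15 and PTPRC in 5, PDGFRA stayed at or below 0.542 CPM, and COL1A1 (5.33 to 15.2 CPM) and CD68 (0.870 to 29.3 CPM) were detected in all. All levels below are CPM after TMM scaling, which divides counts by library totals corrected for composition. In bulk RNA, a change in how many cells express a gene cannot be told apart from a change in its RNA per cell.

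The E-box CACGTG, which reads the same on both strands, was searched in windows from 250 bases before to 50 bases after each start site (RefSeq, GRCh38.p14). Among the 31 members with a window, 15 (48.4%) held it, against 10.9% of 15843 protein-coding genes and 8.77% of all 27305 genes with a window. The median GC content of the windows was 63.7% for the members and 62.3% for protein-coding genes. The matches printed here are from the 10 genes with the motif that rose more than 2-fold at 12 h, chosen for that response so that the sequence can be read beside it. Each line gives the bases around a match 5′ to 3′ on the gene's strand, with the E-box in capitals, and gives the position of its first base, where 1 is the start site and negative values lie before it.
BYSL (chr6:41921515-41921544, plus strand, motif at 29): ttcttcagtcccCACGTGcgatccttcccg
DDX21 (chr10:68956604-68956633, plus strand, motif at -31): ggccgggtgtccCACGTGgtccccggcgac
LYAR (chr4:4290068-4290097, minus strand, motif at -64): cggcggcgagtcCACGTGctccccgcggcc
MRTO4 (chr1:19251807-19251836, plus strand, motif at 15): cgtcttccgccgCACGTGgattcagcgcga
NOP10 (chr15:34343130-34343159, minus strand, motif at -11): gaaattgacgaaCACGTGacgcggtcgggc
NOP10 (chr15:34343289-34343318, minus strand, motif at -170): gtagggacactcCACGTGttttagcctgca
NOP2 (chr12:6568242-6568268, minus strand, motif at 36): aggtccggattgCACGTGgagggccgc
PES1 (chr22:30591880-30591909, minus strand, motif at 14): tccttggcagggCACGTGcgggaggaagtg
RRP9 (chr3:51941892-51941921, minus strand, motif at -5): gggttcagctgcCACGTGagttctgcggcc
UTP20 (chr12:101280083-101280112, plus strand, motif at -10): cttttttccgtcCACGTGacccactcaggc
WDR43 (chr2:28894658-28894687, plus strand, motif at 4): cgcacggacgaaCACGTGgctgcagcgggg
A match is a description of the sequence and does not show that a factor bound there. The other members with a match were FBL, GAR1, GNL3, NOP14 and PNO1, and NOP58, BOP1, RRP12, NOLC1, URB2 and RRP1B had no window. The median log2 fold change at 12 h was 1.20 in the 15 members with the motif, with a range of 0.58 to 1.60, and 0.72 in the 16 without it, with a range of 0.32 to 1.36. The 6 members without a window had a median of 0.98, and the differences between these sets were not tested. NOP16 and TSR1 also rose more than 2-fold at 12 h but had a window without the motif.

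Which ribosome biogenesis genes responded after 12 h of EGF-treatment? All 37 members were higher than in the control, against 32.9% of all genes tested (edgeR quasi-likelihood test, adjusted p under 0.05), and no member was lower, against 36.5%. The median log2 fold change of the members was 0.87, a 1.82-fold rise, while the median of all genes tested was -0.054. In every member, all 4 libraries at 12 h lay above all 4 control libraries, which held for 29.4% of all genes. The members summed to 3944 to 4578 CPM in the control libraries and to 7039 to 7719 CPM at 12 h. Without NPM1, which made up most of that sum, the values were 1677 to 1817 CPM and 3237 to 3367 CPM. More than 1.5-fold upregulation was found in 29 members, against 20.3% of all genes, and more than 2-fold in 15, against 11.5%. BOP1, BYSL, LYAR, DDX21 and UTP20 rose most, with log2 fold changes of 1.90, 1.60, 1.52, 1.51 and 1.42, and POLR1C rose least with 0.32.

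**Figure D1:**
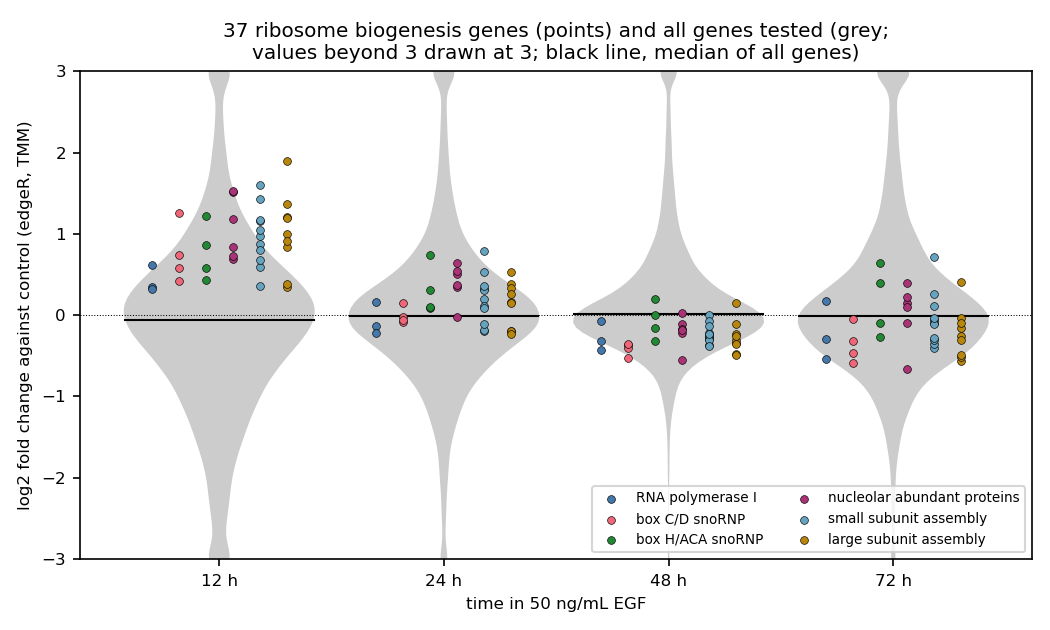
Log2 fold change against the control (y axis) at each time in EGF (x axis, h) for the 37 members, one point each and coloured by role, over the distribution of all 16522 genes tested (grey, values beyond 3 drawn at 3, black line at the median). All member points lie above 0 at 12 h, and most lie below 0 at 48 h.

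The 12 h calls depended on scaling for the members with the smallest changes. Scaling by library totals alone moved the median of all genes from -0.054 to -0.34 and the split of all calls from 5433 higher and 6032 lower to 3581 higher and 8275 lower. Upper quartile scaling moved the median of all genes to -0.22 and the split to 4317 higher and 7299 lower. All 37 members kept a log2 fold change above 0 under both, but 30 and 35 of them passed the test. The 7 calls lost with library totals were those of NHP2, NOP58, POLR1A, POLR1C, RRP1B, UTP15 and WDR12, and with upper quartile scaling those of POLR1A and POLR1C were lost. No 12 h call was lost when any single library was left out.

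After 24 h of EGF-treatment the rise had mostly receded. All 37 members were lower at 24 h than at 12 h, against 25.9% of all genes tested, with a median log2 fold change of -0.73 beside 0.040 over all genes, and none was higher, against 27.9%. Compared with the control, 17 members were still higher at 24 h, against 29.2% of all genes, and 2 were lower, against 29.6%, namely POLR1C and RRP1B. The median log2 fold change was 0.16, beside -0.0071 over all genes. POLR1C lost its call without control replicate 1 (-0.15) or EGF 24 h replicate 1 (-0.16) or 2 (-0.20), with no filter (-0.22) and with only the 8 libraries of the comparison fitted (-0.22). The number of lower members rested on single libraries, being 1 without control replicate 1 or EGF 24 h replicate 2, 6 without control replicate 2 and 4 without EGF 24 h replicate 4. Every library at 24 h held a summed level of 5263 to 5930 CPM, above all control and below all 12 h libraries. Without NPM1 the 24 h sums were 1854 to 2144 CPM, closer to the 1677 to 1817 CPM of the control libraries. The share of the 12 h log2 rise that was left at 24 h had a median of 19.5% and ran from -68.2% in POLR1C to 73.3% in NPM1. It was 50% or more in 5 members, NPM1, NOP10, UTP20, GAR1 and GNL3. All comparisons with the control share the same 4 control libraries, and comparisons of neighbouring times share libraries too.

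At 48 h most members were below the control. Of the 37, 21 were lower than in the control, against 21.8% of all genes, and 1, NOP10, was higher, against 24.0%. The median log2 fold change was -0.26, beside 0.0099 over all genes tested. From 24 h to 48 h, 29 members fell, against 24.3% of all genes, none rose, against 25.9%, and the median change was -0.42, beside 0.020 over all genes. The summed level was 3476 to 3995 CPM, so the 48 h and control libraries overlapped in this sum. Without NPM1, the sum of 1421 to 1496 CPM lay below all control libraries. No member had more than 1.5-fold downregulation at 48 h, against 6.63% of all genes. With scaling factors taken for each gene from the deposited normalized values (factors per gene), 12 members were lower at 48 h and none was higher. Of the 11956 genes with such factors, 2385 were lower and 1949 higher at 48 h. NOP10 was also not called at 48 h without control replicate 1, 3 or 4 or EGF 48 h replicate 1 or 2 (log2 fold changes 0.13 to 0.21), while PES1 was called as well without control replicate 2, giving 2 members.

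After 72 h the members went both ways, as all genes did. Compared with the control, 7 were higher (18.9%, against 30.6% of all genes), 14 were lower (37.8%, against 31.0%) and 16 were not called. The share lower was thus near that of all genes. The median log2 fold change was -0.10, beside -0.0090 over all genes tested. GAR1, NOP10, PES1, GNL3, RRP12, TSR1 and DDX21 were the 7 higher members, and these 7 were also called higher at 12 and 24 h. Of them, RRP12 lost its 24 h call (0.31) without control replicate 3 (0.23) or EGF 24 h replicate 3 (0.26), and with library totals (0.17), upper quartile scaling (0.26), no filter (0.31) or the 8 compared libraries only (0.31). All 14 lower members were lower at 48 h too. The shares of all genes with these joint calls over several times were not computed, so they cannot be read as particular to the members. From 48 h to 72 h, 11 members rose, against 17.9% of all genes, 1 (WDR12) fell, against 17.9%, and the median change was 0.098, beside -0.012 over all genes. RRP12, which acts in export and maturation of the subunits, had the largest change with a log2 fold change of 0.71 against 48 h. It averaged 6.25 ± 0.758 CPM (SD, n = 4) in the control, 12.9 ± 0.169 CPM at 12 h, 7.77 ± 0.689 CPM at 24 h, 6.27 ± 0.807 CPM at 48 h and 10.2 ± 0.472 CPM at 72 h. DDX21 lost its 72 h call without EGF 72 h replicate 2 (0.19) or control replicate 2 (0.17), with library totals (0.15) and with factors per gene (0.21).

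Across the 5 groups, the highest group mean was at 12 h in all 37 members and in 28.7% of all genes tested. The lowest mean was at 48 h in 22 members, against 13.0% of all genes, at 72 h in 11, against 17.2%, and in the control in 4, against 25.6%. A rise at 12 h followed by a fall to 24 h was called in 37 members, against 18.1% of all genes. A further fall to 48 h was called in 29 members, against 9.7%, and 16 of these were also below the control at 48 h, against 2.75%.

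**Figure D2:**
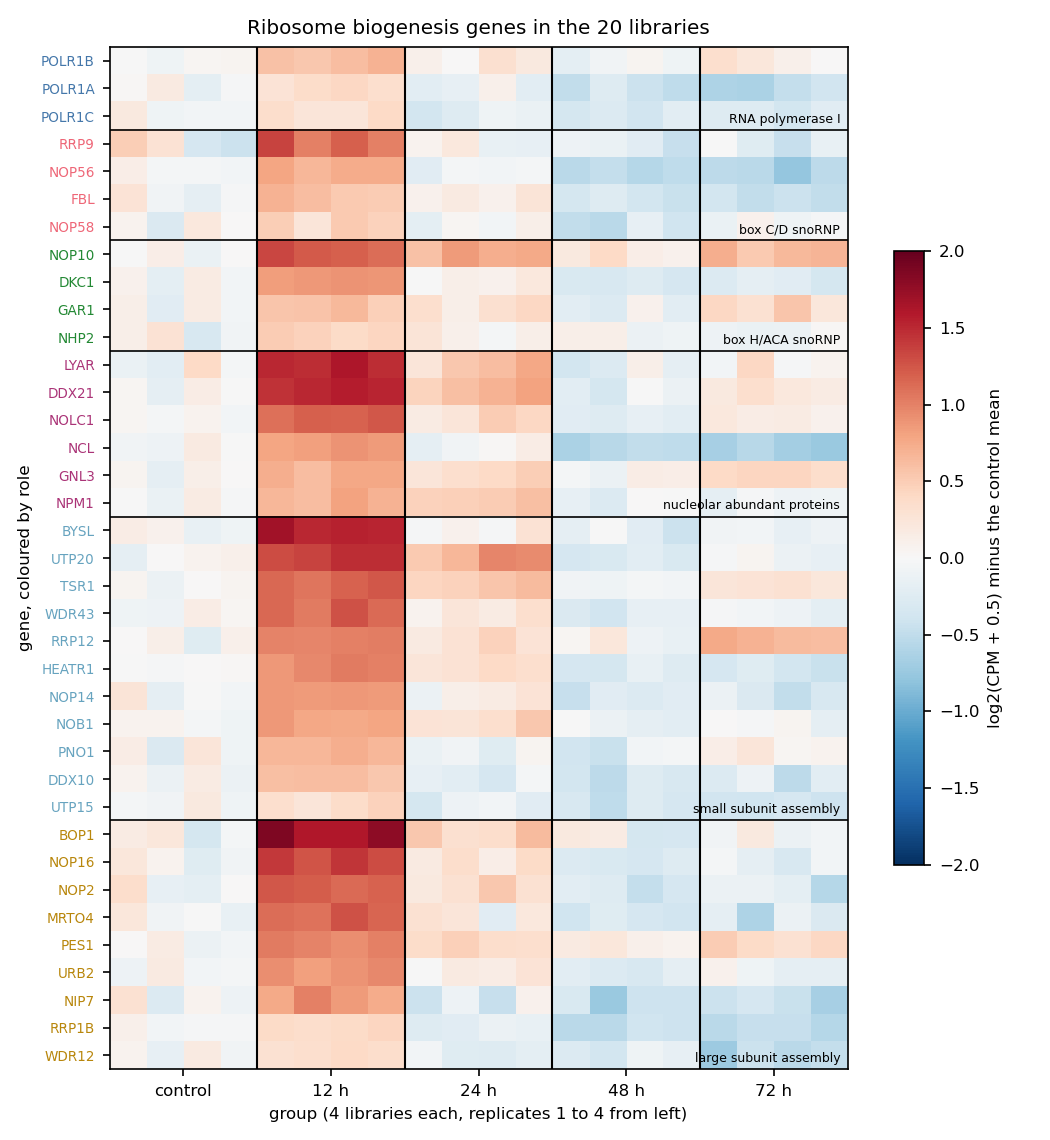
Colour shows log2(CPM + 0.5) minus the control mean for each member (rows, grouped and coloured by role) in each of the 20 libraries (columns, 4 per group). The 4 libraries at 12 h are red in every row, and the 48 h columns are mostly blue.

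The RNA polymerase I subunits rose least as a role group, with log2 fold changes of 0.32 to 0.62 at 12 h. POLR1A encodes the largest catalytic subunit, POLR1B the other large core subunit, and POLR1C a subunit shared with RNA polymerase III. POLR1B (chr2:112541915-112577150, plus strand) had 32.4, 30.4, 33.3 and 33.9 CPM in the control libraries and 48.9, 47.2, 50.3 and 52.8 CPM at 12 h. It then had 34.8, 32.6, 40.6 and 37.1 CPM at 24 h, 28.2, 30.9, 33.7 and 30.7 CPM at 48 h, and 41.2, 38.1, 34.7 and 32.5 CPM at 72 h. Only the 12 h libraries were clear of the control libraries, and the later groups overlapped them. The 12 h log2 fold change was 0.62 with an SE of 0.080 (edgeR, adjusted p = 3.3e-07). At 48 h, POLR1A and POLR1C were lower than the control with log2 fold changes of -0.43 and -0.31, and POLR1B was at -0.07 without a call (edgeR, adjusted p = 0.49). POLR1A averaged 35.8 ± 3.79 CPM (SD, n = 4) in the control, 45.4 ± 1.84 CPM at 12 h, 32.8 ± 3.55 CPM at 24 h, 26.5 ± 2.23 CPM at 48 h and 24.6 ± 2.11 CPM at 72 h. POLR1C averaged 17.3 ± 1.62 CPM (SD, n = 4) in the control, 21.6 ± 1.18 CPM at 12 h, 14.9 ± 1.33 CPM at 24 h, 13.9 ± 0.804 CPM at 48 h and 14.2 ± 0.593 CPM at 72 h. Both had lower means at every time after 12 h than in the control. With factors per gene, POLR1A was not called at 48 h (-0.38).

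All 4 box C/D snoRNP genes rose at 12 h, with log2 fold changes of 0.42 to 1.25, and none was called at 24 h. FBL is the methyltransferase, NOP56 and NOP58 form the scaffold, and RRP9 binds the snoRNA that guides early cuts of the rRNA precursor. NOP56 (chr20:2652145-2658393, plus strand) had 139.9, 124, 124 and 122 CPM in the control libraries and 221, 202, 214 and 214 CPM at 12 h. It had 109, 124, 122 and 124 CPM at 24 h, 87.8, 91.4, 86.01 and 89.8 CPM at 48 h, and 88.4, 87.3, 74.6 and 88.1 CPM at 72 h. The 12 h libraries lay above and the 48 h and 72 h libraries below all control libraries. Against the control, NOP56 changed by 0.74, -0.52 and -0.59 on the log2 scale after 12, 48 and 72 h (edgeR, adjusted p = 5.6e-10, 6.2e-07 and 4.1e-08). RRP9 (chr3:51933430-51941941, minus strand) was scarce, with 26 to 126 counts per library, and had 3.26, 2.77, 1.62 and 1.49 CPM in the control and 6.36, 4.903, 5.63 and 4.88 CPM at 12 h. At 24 h it had 2.32, 2.599, 1.92 and 1.903 CPM, at 48 h 1.99, 1.96, 1.79 and 1.45 CPM, and at 72 h 2.16, 1.76, 1.45 and 1.92 CPM. Its control libraries spread widely, yet all 12 h libraries were higher, and no later group was clear of the control. The 12 h log2 fold change was 1.25 with an SE of 0.20 (edgeR, adjusted p = 6.3e-06). FBL averaged 99.9 ± 14.01 CPM (SD, n = 4) in the control, 149 ± 8.500 CPM at 12 h, 111 ± 6.46 CPM at 24 h, 77.4 ± 4.22 CPM at 48 h and 72.6 ± 3.04 CPM at 72 h, and was lower than the control at 48 and 72 h. NOP58 averaged 47.4 ± 6.93 CPM (SD, n = 4) in the control, 63.6 ± 5.47 CPM at 12 h, 46.6 ± 4.34 CPM at 24 h, 35.7 ± 4.37 CPM at 48 h and 45.9 ± 2.87 CPM at 72 h, was lower at 48 h and rose again to 72 h by 0.36 on the log2 scale. With factors per gene, the calls were lost of FBL at 12 h (0.27) and of NOP58 at 48 h (-0.18) and from 48 h to 72 h (0.30).

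Among the box H/ACA snoRNP genes, NOP10 stayed elevated while DKC1 did not. DKC1 is the pseudouridine synthase, and NOP10, GAR1 and NHP2 are its partner proteins. DKC1 (chrX:154762742-154777689, plus strand) had 115, 94.4, 122 and 104 CPM in the control and 193, 197, 202 and 201 CPM at 12 h. It had 107, 117, 115 and 125 CPM at 24 h, 87.3, 86.4, 90.8 and 85.8 CPM at 48 h, and 89.6, 95.3, 92.7 and 84.8 CPM at 72 h. The 24 h libraries overlapped the control libraries, and all 48 h libraries lay below them. For 12, 24 and 48 h the DKC1 log2 fold changes were 0.87, 0.09 and -0.31 (edgeR, adjusted p = 9.2e-11, 0.25 and 0.00072). With factors per gene the 48 h value of DKC1 was -0.04 and not called (adjusted p = 0.81). NOP10 (chr15:34341713-34343177, minus strand) had 68.6, 75.8, 63.04 and 69.6 CPM in the control and 174, 163, 159.6 and 149.8 CPM at 12 h. It had 104, 125, 115 and 118 CPM at 24 h, 78.9, 91.4, 75.8 and 73.1 CPM at 48 h, and 114, 99.4, 109 and 112 CPM at 72 h. The libraries at 12, 24 and 72 h were all above the control, and 3 of the 48 h libraries were. NOP10 was the member called higher at all 4 times, with log2 fold changes of 1.22, 0.74, 0.20 and 0.65 (edgeR, adjusted p = 1.9e-12, 2.2e-08, 0.036 and 1.5e-07). The 48 h call is the least firm of these, as given above. GAR1 averaged 7.799 ± 1.03 CPM (SD, n = 4) in the control, 11.7 ± 0.626 CPM at 12 h, 9.68 ± 0.867 CPM at 24 h, 6.97 ± 0.867 CPM at 48 h and 10.2 ± 1.05 CPM at 72 h. It was higher than the control at 24 h with a log2 fold change of 0.31, a call lost without control replicate 2 (0.24) or EGF 24 h replicate 4 (0.27), and at 72 h with 0.40. NHP2 averaged 84.2 ± 14.95 CPM (SD, n = 4) in the control, 114 ± 4.22 CPM at 12 h, 90.3 ± 7.72 CPM at 24 h, 84.1 ± 7.29 CPM at 48 h and 78.7 ± 3.87 CPM at 72 h, and against the control was called at 12 h alone. The GAR1 decrease from 12 h to 24 h (-0.27) lost its call without EGF 12 h replicate 1, 2 or 3 or EGF 24 h replicate 1, 2 or 3, with values of -0.28 to -0.22. It was also lost with library totals (-0.13), upper quartile scaling (-0.16), at least 10 counts (-0.23), no filter (-0.31) and factors per gene (-0.27). The GAR1 call at 24 h was lost with library totals (0.17), the 8 compared libraries only (0.31) and factors per gene (0.24), and that at 72 h with factors per gene (0.23).

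Of the 6 genes listed as abundant nucleolar proteins, 5 were still higher at 24 h, and NCL, which was not called, was the exception. The name is a role label and not a measured level, and LYAR ranked 17 among the members in control CPM per kb. NPM1 is a histone and ribosomal protein chaperone, NCL binds nascent rRNA precursor, NOLC1 is a snoRNP chaperone, GNL3 a nucleolar GTPase, DDX21 an RNA helicase and LYAR a zinc finger protein. NPM1 (chr5:171387116-171411137, plus strand) was the most abundant member, with 2470.5, 2268, 2788 and 2433 CPM in the control and 3937, 3801, 4352 and 4009 CPM at 12 h. It had 3409, 3453, 3516 and 3785 CPM at 24 h, 2227, 2047, 2499 and 2459 CPM at 48 h, and 2199, 2444, 2324 and 2329 CPM at 72 h. The 12 h and 24 h libraries were clear of the control, and the 48 h and 72 h libraries overlapped it. For 12 and 24 h the NPM1 log2 fold changes were 0.69 and 0.51 (edgeR, adjusted p = 4.3e-09 and 1e-06). The decrease from 12 h to 24 h was -0.18 (edgeR, adjusted p = 0.027), and leaving out EGF 12 h replicate 3 or EGF 24 h replicate 1, 2 or 3 removed the call with values of -0.18 to -0.15, as did library totals (-0.04), upper quartile scaling (-0.07) and at least 10 counts (-0.15). The annotation holds 49 pseudogenes named for NPM1, and their counts came to 0.0732% of its own, although reads shared with them could have been divided in the counting. LYAR (chr4:4267701-4290169, minus strand) had 16.9, 15.9, 24.5 and 18.02 CPM in the control and 53.7, 52.5, 57.8 and 52.7 CPM at 12 h. It had 22.1, 27.2, 28.9 and 32.3 CPM at 24 h, 14.2, 15.3, 20.1 and 16.3 CPM at 48 h, and 17.9, 25.03, 18.3 and 19.6 CPM at 72 h. Only the 12 h libraries were clear of the control. LYAR had log2 fold changes of 1.52 and 0.55 for 12 and 24 h (edgeR, adjusted p = 5.5e-10 and 0.0012). NCL averaged 217 ± 18.9 CPM (SD, n = 4) in the control, 387 ± 13.3 CPM at 12 h, 213 ± 20.5 CPM at 24 h, 148 ± 6.31 CPM at 48 h and 137 ± 7.58 CPM at 72 h, and its log2 fold changes of -0.55 and -0.66 at the last 2 times were calls. DDX21 had the second largest rise of the group, and averaged 146 ± 13.1 CPM (SD, n = 4) in the control, 416 ± 15.5 CPM at 12 h, 227 ± 23.8 CPM at 24 h, 129 ± 13.2 CPM at 48 h and 171 ± 9.62 CPM at 72 h. NOLC1 averaged 103 ± 4.53 CPM (SD, n = 4) in the control, 234 ± 9.603 CPM at 12 h, 131 ± 14.4 CPM at 24 h, 88.8 ± 2.595 CPM at 48 h and 115 ± 4.24 CPM at 72 h, and was lower than the control at 48 h (-0.22), except with factors per gene (-0.10, not called). GNL3 averaged 47.9 ± 4.17 CPM (SD, n = 4) in the control, 79.2 ± 3.88 CPM at 12 h, 61.9 ± 4.55 CPM at 24 h, 48.9 ± 4.45 CPM at 48 h and 63.3 ± 1.71 CPM at 72 h, and was not called against the control at 48 h.

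The 11 small subunit assembly genes rose at 12 h with log2 fold changes of 0.36 to 1.60, and 6 were still higher at 24 h. UTP15, UTP20, HEATR1, WDR43 and NOP14 belong to the processome that forms on the rRNA precursor, DDX10 is an RNA helicase, and BYSL, RRP12, TSR1, PNO1 and NOB1 act on later pre-subunits. HEATR1 (chr1:236549005-236604504, minus strand) had 82.5, 82.3, 84.04 and 84.6 CPM in the control and 152, 162, 172 and 168 CPM at 12 h. It had 99.2, 102, 110.1 and 105 CPM at 24 h, 65.9, 65.5, 75.03 and 69.5 CPM at 48 h, and 65.8, 70.3, 64.8 and 60.9 CPM at 72 h. No group overlapped the control, with 12 h and 24 h above it and 48 h and 72 h below. HEATR1 had log2 fold changes of 0.97, 0.32, -0.27 and -0.35 in time order (edgeR, adjusted p = 1.7e-12, 0.00011, 0.00096 and 4e-05). With factors per gene, HEATR1 was not called at 48 h (-0.28) or 72 h (-0.16). LGALS8, on the opposite strand, overlaps 23.2% of the exon bases of HEATR1, and the strand setting of the counting is not given in the sources used here. BYSL (chr6:41921188-41933046, plus strand) had 14.1, 13.4, 11.4 and 11.9 CPM in the control and 41.4, 36.99, 37.8 and 37.3 CPM at 12 h. It had 12.5, 13.4, 12.4 and 15.5 CPM at 24 h, 11.1, 12.5, 10.8 and 9.29 CPM at 48 h, and 12.02, 12.1, 11.2 and 11.8 CPM at 72 h. Apart from 12 h, all groups overlapped the control. The 12 h log2 fold change was 1.60 with an SE of 0.093 (edgeR, adjusted p = 3.3e-13), and by 24 h it was 0.09 (adjusted p = 0.45). UTP20 averaged 21.8 ± 1.898 CPM (SD, n = 4) in the control, 58.5 ± 3.62 CPM at 12 h, 37.9 ± 5.82 CPM at 24 h, 17.7 ± 0.754 CPM at 48 h and 20.9 ± 1.503 CPM at 72 h. It was still 0.80 above the control at 24 h on the log2 scale, the largest value of any member at that time, while BYSL was not called, and the difference between these genes was not tested. WDR43 averaged 60.7 ± 5.23 CPM (SD, n = 4) in the control, 135 ± 9.57 CPM at 12 h, 69.7 ± 5.64 CPM at 24 h, 50.9 ± 3.697 CPM at 48 h and 56.8 ± 3.02 CPM at 72 h. Its 24 h log2 fold change of 0.20 lost its call without control replicate 1 (0.17) or 2 (0.17) or EGF 24 h replicate 2 (0.19) or 4 (0.15), with library totals (0.06), upper quartile scaling (0.15), no filter (0.20) and the 8 compared libraries only (0.20). TSR1 averaged 42.01 ± 2.37 CPM (SD, n = 4) in the control, 94.6 ± 4.45 CPM at 12 h, 60.5 ± 4.12 CPM at 24 h, 40.04 ± 0.495 CPM at 48 h and 50.4 ± 1.16 CPM at 72 h, and was called higher at 12, 24 and 72 h. UTP15 and DDX10 were lower than the control at 48 and 72 h, with log2 fold changes of -0.37 and -0.40 for UTP15 and -0.38 and -0.28 for DDX10, and DDX10 lost its 72 h call without EGF 72 h replicate 3 (-0.20). With factors per gene, UTP15 was not called at 48 h (-0.19) or 72 h (-0.26). PNO1, which binds the pre-subunit near the final cutting site, averaged 24.3 ± 3.998 CPM (SD, n = 4) in the control, 38.8 ± 0.988 CPM at 12 h, 22.4 ± 1.98 CPM at 24 h, 20.6 ± 3.07 CPM at 48 h and 26.2 ± 1.67 CPM at 72 h. NOB1, the endonuclease of that final cut, averaged 20.7 ± 1.19 CPM (SD, n = 4) in the control, 36.2 ± 1.29 CPM at 12 h, 26.5 ± 2.49 CPM at 24 h, 18.9 ± 1.22 CPM at 48 h and 20.2 ± 1.44 CPM at 72 h, and was still 0.36 above the control at 24 h on the log2 scale. NOP14 averaged 18.1 ± 2.43 CPM (SD, n = 4) in the control, 33.1 ± 0.303 CPM at 12 h, 19.5 ± 2.25 CPM at 24 h, 14.6 ± 1.11 CPM at 48 h and 14.6 ± 1.61 CPM at 72 h, and its calls at 48 and 72 h (both -0.31) were lost without control replicate 1 (both -0.22), without EGF 48 h replicate 1 for 48 h (-0.25) and without EGF 72 h replicate 3 for 72 h (-0.25), and the 48 h call also with the 8 compared libraries only (-0.31). Opposite-strand genes overlap 20.8% of the exon bases of TSR1, 20.2% of NOB1, 17.1% of NOP14 and 10.4% of PNO1. Outside this role, the largest such overlaps were 27.4% in NHP2, 20.2% in NIP7, 19.95% in NOP16 and 18.2% in POLR1C. The limit given for HEATR1, an unknown strand setting, holds for all these genes.

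All 9 large subunit assembly genes rose at 12 h, with log2 fold changes of 0.35 to 1.90. PES1, BOP1 and WDR12 form the PeBoW complex, NOP2 is an rRNA methyltransferase, and NOP16, RRP1B, MRTO4, NIP7 and URB2 act in pre-subunit assembly. BOP1, on chromosome 8, had 2.76, 2.901, 1.79 and 2.35 CPM in the control and 10.2, 8.34, 8.396 and 9.61 CPM at 12 h. It had 3.76, 3.16, 3.21 and 4.002 CPM at 24 h, 2.83, 2.79, 1.79 and 1.81 CPM at 48 h, and 2.27, 2.84, 2.18 and 2.299 CPM at 72 h. The 12 h and 24 h libraries were all above the control, and the later ones overlapped it. BOP1 had log2 fold changes of 1.90 and 0.53 for 12 and 24 h (edgeR, adjusted p = 3.3e-10 and 0.011), the latter not called with library totals (0.39). Within PeBoW, BOP1 rose by 1.90, PES1 by 1.00 and WDR12 by 0.35 at 12 h on the log2 scale, and the differences between these genes were not tested. RRP1B (chr21:43659548-43696079, plus strand) had 117, 105, 107 and 108 CPM in the control and 142, 139, 143 and 147 CPM at 12 h. It had 90.8, 92.8, 100.5 and 97.96 CPM at 24 h, 75.1, 74.6, 82.8 and 81.5 CPM at 48 h, and 75.1, 78.8, 79.1 and 73.1 CPM at 72 h. Every library from 24 h on was below every control library. RRP1B had log2 fold changes of 0.39, -0.19, -0.48 and -0.51 in time order (edgeR, adjusted p = 3e-06, 0.0069, 4.9e-07 and 7.1e-08), and its 24 h call was lost with the 8 compared libraries only (-0.19). PES1 averaged 30.1 ± 2.62 CPM (SD, n = 4) in the control, 60.3 ± 1.904 CPM at 12 h, 39.3 ± 1.73 CPM at 24 h, 33.3 ± 1.56 CPM at 48 h and 39.9 ± 2.18 CPM at 72 h, and was called higher at 12, 24 and 72 h. WDR12 averaged 23.5 ± 2.54 CPM (SD, n = 4) in the control, 29.9 ± 0.877 CPM at 12 h, 20.5 ± 1.37 CPM at 24 h, 20.1 ± 1.75 CPM at 48 h and 16.01 ± 1.46 CPM at 72 h, and was the member that fell from 48 h to 72 h, by 0.33 on the log2 scale, although not with factors per gene (-0.32, not called). NOP16 averaged 20.9 ± 2.99 CPM (SD, n = 4) in the control, 53.8 ± 3.14 CPM at 12 h, 25.1 ± 2.24 CPM at 24 h, 16.9 ± 0.438 CPM at 48 h and 18.7 ± 1.74 CPM at 72 h. Its 24 h log2 fold change of 0.27 lost its call without control replicate 3 (0.19) or EGF 24 h replicate 2 (0.24) or 4 (0.22), with library totals (0.12), upper quartile scaling (0.22), factors per gene (0.23) and the 8 compared libraries only (0.26). NOP2 averaged 13.4 ± 2.56 CPM (SD, n = 4) in the control, 30.8 ± 1.09 CPM at 12 h, 16.9 ± 1.82 CPM at 24 h, 10.5 ± 0.866 CPM at 48 h and 11.2 ± 1.64 CPM at 72 h, with log2 fold changes of 0.34 at 24 h and -0.35 at 48 h. Those 2 NOP2 calls were lost without control replicate 2 (0.28) or 3 (0.27) or EGF 24 h replicate 3 (0.27) for 24 h, and without control replicate 1 (-0.21) or EGF 48 h replicate 3 (-0.29) for 48 h. The 24 h call of NOP2 was also lost with library totals (0.19) and factors per gene (0.32), and the 48 h call with the 8 compared libraries only (-0.35) and factors per gene (-0.37). MRTO4 averaged 9.23 ± 1.11 CPM (SD, n = 4) in the control, 21.1 ± 1.25 CPM at 12 h, 10.2 ± 1.69 CPM at 24 h, 7.18 ± 0.389 CPM at 48 h and 7.42 ± 1.16 CPM at 72 h. It was lower than the control at 48 h (-0.36), a call lost without control replicate 1 (-0.28), and at 72 h (-0.31), a call lost without control replicate 1 (-0.23) or EGF 72 h replicate 2 (-0.21) or 4 (-0.30), with at least 10 counts (-0.25), no filter (-0.31), factors per gene (-0.29) and the 8 compared libraries only (-0.30). NIP7 averaged 17.5 ± 3.09 CPM (SD, n = 4) in the control, 31.4 ± 2.82 CPM at 12 h, 14.9 ± 2.91 CPM at 24 h, 12.4 ± 1.62 CPM at 48 h and 12.4 ± 1.204 CPM at 72 h, and was lower at 48 and 72 h by the same log2 fold change of -0.49, but with factors per gene the 48 h value was -0.12 and not called (adjusted p = 0.59). URB2 averaged 21.5 ± 1.97 CPM (SD, n = 4) in the control, 40.5 ± 1.66 CPM at 12 h, 23.9 ± 1.94 CPM at 24 h, 17.99 ± 0.782 CPM at 48 h and 20.1 ± 1.86 CPM at 72 h, and its 48 h call (-0.26) was lost without control replicate 2 (-0.19). NOP2 shares 54.4% of its exon bases with another gene on its strand, so its counts could have been divided between them.

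**Figure D3:**
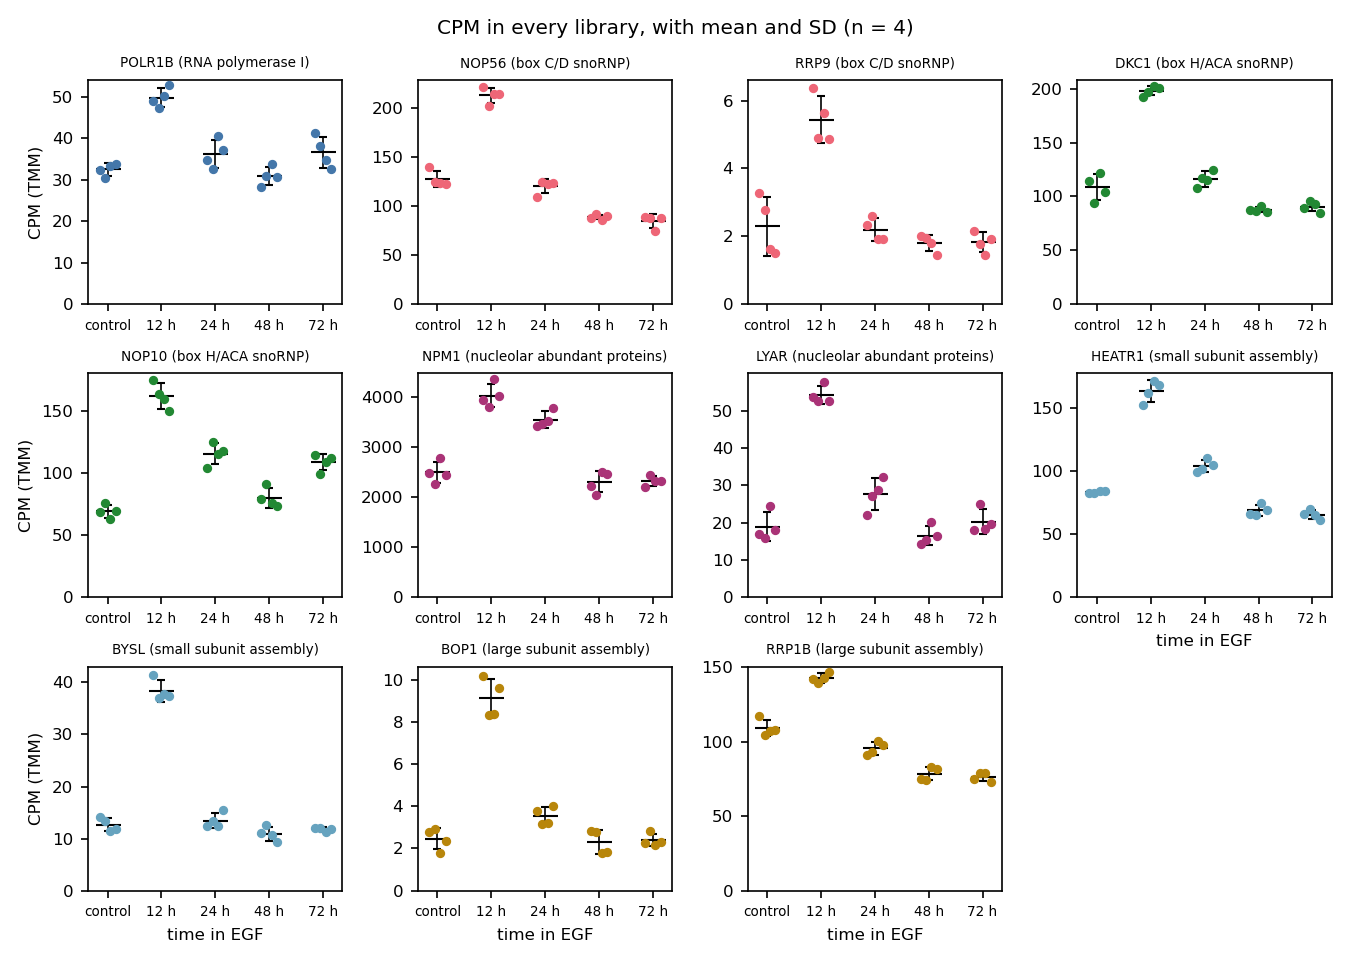
CPM (TMM scaled, y axes from 0) in each library, with mean and SD (n = 4, black), for the 11 members described in every library, by group (x axes, control and time in EGF). The 12 h points are the highest in each panel, and in RRP1B, NOP56 and HEATR1 the 48 h and 72 h points lie below the control points.

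Levels between genes were compared per kilobase of merged exons. NPM1 had 650 ± 56.7 CPM per kb (SD, n = 4) in the control, NOP10 125 ± 9.41, NHP2 55.8 ± 9.90 and FBL 46.0 ± 6.45. NPM1 and NOP10 were clear of all members below them, while NHP2 and FBL differed by less than the sum of their SDs. BOP1 (0.660 ± 0.134 CPM per kb) and RRP12 (0.732 ± 0.089) were the lowest, and their means lay within an SD of BOP1. At 12 h NPM1 reached 1051 CPM per kb and NOP10 292, and DDX21 moved from rank 6 of the members to rank 3 with 82.8. With the length of the longest transcript instead, 9 of the 10 highest members were the same.

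**Figure D4:**
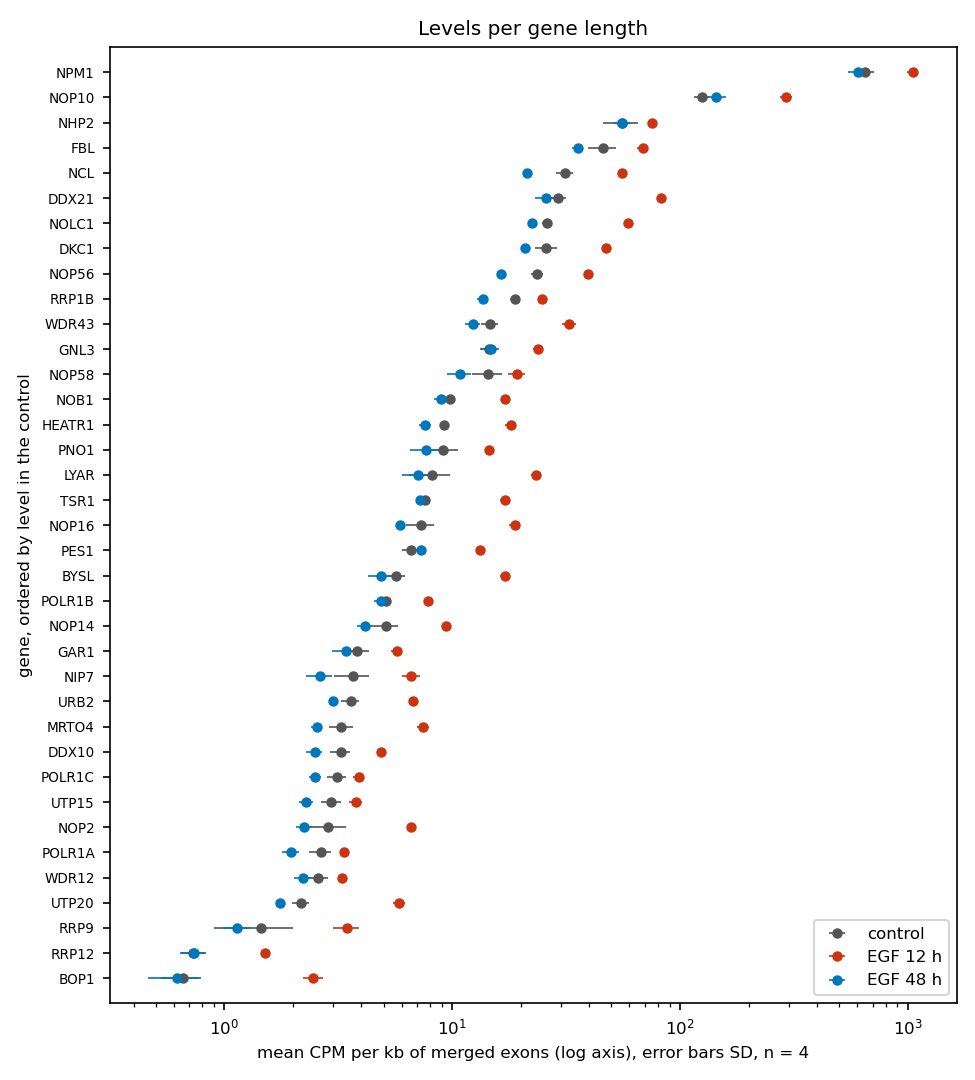
Mean CPM per kb of merged exons (log x axis, SD bars, n = 4) of the 37 members in the control, at 12 h and at 48 h of EGF, ordered by the control level. The 12 h point is to the right of the control point in every gene.

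Beyond the members, 132 other ribosome biogenesis genes were listed, and all were tested. At 12 h, 101 were higher and 6 lower (76.5% and 4.55%, against 32.9% and 36.5% of all genes tested), with a median log2 fold change of 0.49. By role, 9 of 12 RNA polymerase I genes, 4 of 8 snoRNP assembly genes, 37 of 47 small subunit genes, 43 of 53 large subunit genes and 8 of 12 rRNA exonuclease genes were higher. Scaling by library totals gave 64 higher and 19 lower at 12 h, beside 3581 higher and 8275 lower of all 16522 genes tested. At 48 h, 5 were higher and 54 lower (3.79% and 40.9%, against 24.0% and 21.8% of all genes). At 72 h, 21 were higher and 43 lower (15.9% and 32.6%, against 30.6% and 31.0%), so the share lower at 72 h was near that of all genes. PWP2 (1.62), DDX47 and MYBBP1A (both 1.53), which act in subunit assembly, had the largest 12 h rises. ZNHIT6, a snoRNP assembly factor, fell by 1.22 on the log2 scale, from 75.4 ± 15.8 to 32.4 ± 1.51 CPM (SD, n = 4). UBTF, which binds and opens rRNA genes for RNA polymerase I, fell by 0.64 and NVL, an ATPase of large subunit maturation, fell by 0.54. In ZNHIT6, UBTF and NVL all 12 h libraries lay below all control libraries, opposite in direction to every member. EXOSC1, EXOSC6 and EXOSC8, subunits of the RNA exosome, were the remaining genes called lower at 12 h.

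Another feature of the members was the number that carry snoRNA genes inside them. Of the 37, 8 (21.6%) held 26 snoRNA genes on their own strand, against 1.71% of 13359 tested protein-coding genes. NOP56 held SNORA51, SNORD110, SNORD56, SNORD57 and SNORD86, and DKC1 held SNORA36A and SNORA56. The other hosts were NOP58, NCL, GNL3, WDR43, TSR1 and POLR1C.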

How the data were processed

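RNA of 20 MDA-MB-468 libraries (Lexogen Corall mRNA kit) was counted per gene. The authors deposited estimated counts per gene, rounded to whole numbers, in 10 tables holding the same counts. The names hg38 and DESeq2 come from the submitters' processing notes, and the methods name the SARTools pipeline. The aligner, counter, annotation, strand setting and handling of molecular identifiers are not given in the sources used here. The tables also hold normalized values deposited by the authors as a score (counts divided by factors that vary between genes), used only for a scaling alternative, and the authors' own fold changes and p-values, which were not used.

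Counts were filtered with filterByExpr, scaled by TMM and fitted in edgeR 4.0.16 (limma 3.58.1, R 4.3.3) with the quasi-likelihood test, all 20 libraries in a single model, Benjamini-Hochberg adjusted over 16522 genes (adjusted p under 0.05). Libraries held 15611961 to 25856953 counts. Samples were grouped by the labels. The members and gene lists were chosen with earlier results of these data known. Values in every library are given, in each role, for the most changed and the most abundant member; other ribosome biogenesis genes were named as the 3 largest rises and the 3 largest falls at 12 h without overlap. Positions are from GENCODE 29 (GRCh38). Scripts were tested on simulated data. Alternatives were other scalings and filters, DESeq2 1.42.0, glmTreat, a replicate block and leaving out each library. Replicates differed by more than sampling noise, with a chi-square per gene of 3.55 to 58.4 over 30 pairs, so no library was counted as a copy of another.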

Additional observations from a re-analysis of the deposited data

Results flagged for a closer look

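Of 185 groups of 4 libraries (37 members in 5 groups), 7 held a library far from the other 3, while chance gives about 1 in 20. POLR1A in EGF 24 h replicate 3 was 38.1 CPM, above 30.7 to 31.8 in the others. POLR1C in control replicate 1 was 19.7 CPM, above 16.3 to 16.7. NOP56 was 139.9 CPM in control replicate 1 (others 122 to 124), 109 in EGF 24 h replicate 1 (others 122 to 124) and 74.6 in EGF 72 h replicate 3 (others 87.3 to 88.4). DDX10 in EGF 12 h replicate 4 was 40.6 CPM, below 42.7 to 42.9, and PNO1 in EGF 12 h replicate 3 was 40.3 CPM, above 38.2 to 38.5. The effect of EGF also differed between times in tests of neighbouring times: 37 members differed between 12 h and 24 h, 29 between 24 h and 48 h and 12 between 48 h and 72 h. In the same comparisons, 8879, 8292 and 5906 of all 16522 genes tested differed. From 48 h to 72 h the share of the members was thus no larger than that of all genes.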

How the results depend on the processing

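All 37 members kept a positive 12 h log2 fold change under every alternative, and the number called higher was 36 with factors per gene (added after seeing the data), 35 with upper quartile scaling, 30 with library totals and 24 with glmTreat against 1.5-fold. Over all genes, 4322 of 11956 were higher at 12 h with factors per gene. Of 16522 genes, 4317 were higher with upper quartile scaling, 3581 with library totals and 2512 with glmTreat. The 12 h median was 0.83 with at least 10 counts in every library, 0.89 with DESeq2 size factors and with the DESeq2 Wald test, 0.90 without a filter, 1.04 with factors per gene, 0.58 with library totals and 0.71 with upper quartile scaling. At 24 h, members lower numbered 0 with the 8 compared libraries only and with glmTreat, 1 without a filter, 4 with factors per gene, 5 with upper quartile scaling and 10 with library totals. Over all genes, 4310 of 15169 were lower with the 8 compared libraries only, 4779 of 33535 without a filter and 3125 of 11956 with factors per gene. Of 16522 genes, 1620 were lower with glmTreat, 5361 with upper quartile scaling and 6421 with library totals. Each of these shares was larger than that of the members. Members higher at 24 h numbered 2 with glmTreat and 11 with library totals, where the median was 0.015. With the same settings, 1854 and 3666 of all 16522 genes were higher. At 48 h, members higher numbered 0 with the 8 compared libraries only, factors per gene, glmTreat and no filter, and 2 with at least 10 counts (median -0.22), and members lower numbered 12 with factors per gene and 0 with glmTreat. Genes higher at 48 h numbered 2975 of 15572, 1949 of 11956, 1506 of 16522, 3958 of 33535 and 3154 of 12886 in that order of settings. Genes lower numbered 2385 of 11956 with factors per gene and 410 of 16522 with glmTreat. At 72 h, 9 of the 37 members were lower with factors per gene, no larger a share than the 3491 of 11956 genes with such factors. With glmTreat, 0 members were called in either direction at 72 h, against 2417 higher and 1482 lower of all 16522 genes. The 72 h median was -0.045 with at least 10 counts and -0.18 with library totals. From 12 h to 24 h, 16 members fell with glmTreat, against 649 of all 16522 genes. The median of the members was -0.59 with library totals and -0.62 with upper quartile scaling. From 24 h to 48 h, 2 members fell with glmTreat, against 533 of all 16522 genes. Their median was -0.38 with at least 10 counts, -0.47 with factors per gene, -0.26 with library totals and -0.35 with upper quartile scaling, over all 37 members. From 48 h to 72 h, members lower numbered 0 with factors per gene and 2 with library totals, where the median was 0.0073, and glmTreat called 0 in either direction. Over all genes, 1471 of 11956 were lower with factors per gene and 4175 of 16522 with library totals, and glmTreat called 578 higher and 305 lower. The cause of these shifts was not tested, but glmTreat asks for a larger change by its construction.

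Over all genes, library totals moved the median to -0.15 at 24 h, 0.18 from 12 h to 24 h, 0.17 from 24 h to 48 h and -0.10 from 48 h to 72 h, and upper quartile scaling moved it to 0.16 from 12 h to 24 h. The split of calls into higher and lower changed from 4819 and 4898 to 3666 and 6421 at 24 h with library totals. From 12 h to 24 h it changed from 4608 and 4271 to 6107 and 2796 with library totals, 5913 and 3035 with upper quartile scaling and 2289 and 3546 with factors per gene. With library totals it changed from 4272 and 4020 to 5948 and 2337 from 24 h to 48 h, and from 2951 and 2955 to 2132 and 4175 from 48 h to 72 h.

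With library totals the mean summed CPM of the members was 4534 in the control, 6433 at 12 h and 4053 at 48 h, and with mitochondrial genes left out it was 5086 in the control, 6135 at 24 h, 4629 at 48 h and 4677 at 72 h. For the other ribosome biogenesis genes (alternatives added after seeing the data), those higher and lower at 12 h numbered 39 and 1 with glmTreat and 64 and 19 with library totals, and 14 were lower with upper quartile scaling. Over all 16522 genes, glmTreat called 2512 higher and 3241 lower at 12 h, and 7299 were lower with upper quartile scaling. At 24 h the other ribosome biogenesis genes higher and lower numbered 25 and 11 with factors per gene, 3 and 1 with glmTreat and 16 and 39 with library totals, and 12 were lower with the 8 compared libraries only. At 48 h they numbered 2 and 33 with the 8 compared libraries only and 0 and 1 with glmTreat, and those higher were 9 with at least 10 counts and 3 with factors per gene. At 72 h they numbered 2 and 5 with glmTreat, and 13 were higher with factors per gene. Leaving out each library gave 95 to 103 higher and 6 to 9 lower at 12 h, 30 to 46 and 12 (without EGF 24 h replicate 1) to 21 at 24 h, 4 to 6 and 47 to 59 at 48 h, and 17 to 25 and 37 to 49 at 72 h. The 6 genes named among them kept their 12 h direction under every alternative.

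Leaving out each library gave 37 higher and 0 lower at 12 h (median 0.81 to 0.90), 14 to 18 higher and 1 to 6 lower at 24 h (0.14 to 0.20), 0 to 2 higher and 16 to 22 lower at 48 h (-0.29 to -0.22), and 6 to 9 higher and 12 to 17 lower at 72 h (-0.16 to -0.089). From 12 h to 24 h it gave 35 to 37 lower (-0.75 to -0.69), from 24 h to 48 h 27 to 30 lower (-0.46 to -0.37), and from 48 h to 72 h 9 to 12 higher and 1 lower (0.079 to 0.13).

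No call of a member changed sign under any alternative. Some values without a call did, and those of the 11 members described in every library follow, while values without a call of other members also changed sign, such as WDR12 from 24 h to 48 h with library totals (0.13) and upper quartile scaling (0.033). With factors per gene the changes were POLR1B at 48 h (0.18), NPM1 at 48 h (0.11) and from 48 h to 72 h (-0.15), DKC1 (-0.057) and HEATR1 (0.12) from 48 h to 72 h, and BOP1 at 72 h (0.20). With library totals they were DKC1 at 24 h (-0.049) and, from 48 h to 72 h, DKC1 (-0.038), RRP9 (-0.055), NPM1 (-0.079) and BOP1 (-0.016), and BYSL at 24 h (-0.057). Upper quartile scaling turned RRP9 (-0.0071) and NPM1 (-0.029) from 48 h to 72 h, and at least 10 counts turned BOP1 at 72 h (0.021). Leaving out a library turned RRP9 at 24 h (-0.21 to 0.15) and from 48 h to 72 h (-0.060 to 0.13), NPM1 from 48 h to 72 h (-0.043 to 0.050), LYAR at 72 h (-0.019 to 0.25), and BOP1 at 48 h (-0.23 to 0.0080), at 72 h (-0.16 to 0.062) and from 48 h to 72 h (-0.040 to 0.18).

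With the replicate number as a block, 37 members were higher at 12 h, 17 higher and 2 lower at 24 h, 1 and 21 at 48 h, and 8 and 14 at 72 h. The numbers showed no clear pairing of the samples. Correlations of the deviations were -0.24 to 0.35 (median 0.0092) in 40 pairs of libraries with the same number. In 120 pairs with other numbers they were -0.32 to 0.26 (median -0.0042). Of 20 libraries, 8 were closest to their own number, and these values do not exclude a pairing. Counts of 26 to 126 per library limit RRP9, and 36 to 202 limit BOP1.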
